A study of Mus musculus with 9 samples.

Results

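A set of 9 genes that mark the primitive streak and the definitive endoderm of the mouse embryo was followed in RNA-seq libraries of embryonic stem cells (ESCs): *T*, *Eomes*, *Mixl1*, *Evx1*, *Fgf8*, *Gsc*, *Foxa2*, *Sox17*, and *Cer1*. The genes, and the lists of related genes used below, were chosen by symbol with earlier results of these data known. Each of the 9 had its own row in count tables of 25239 symbols. The 9 libraries came from 3 lines grown in serum with leukemia inhibitory factor, a medium that keeps ESCs pluripotent. There were 3 libraries of control E14 ESCs (Rbbp4+/+), 3 of Rbbp4 Ins/Ins ESCs, and 3 of Rbbp4 Ins/Del ESCs. Rbbp4 encodes a histone-binding protein shared by several chromatin complexes, among them PRC2 and NuRD. The Ins/Ins line carries an in-frame insertion of 3 nucleotides in *Rbbp4* on both alleles, and the Ins/Del line carries that insertion on 1 allele and a short in-frame deletion on the other. Each mutant line was a single clone made by CRISPR-Cas9, so a difference between lines may belong to the clone or to the mutation, and these cannot be told apart. The labels do not say whether the 3 libraries of a line came from separate cultures, so the p-values measure only the spread between these libraries.

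The primitive streak is the site through which epiblast cells leave to form mesoderm and definitive endoderm. Wnt and Nodal signals induce it, *T* and *Mixl1* are switched on along its length, and *Gsc*, *Foxa2*, *Sox17*, and *Cer1* follow in its anterior derivatives. ESCs in serum are mixed cultures, in which some cells express early streak genes at low levels without having left pluripotency.

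Library totals lay between 15838064 and 21366868 counted reads, so a count of 0 in a library allowed a level of up to 0.140 to 0.189 RPM (3 reads of the total in RPM, the reads scaled to library size; counting error only). The ESC identity was checked by the core pluripotency genes: per kb of exon, *Pou5f1*, *Nanog*, and *Sox2* ranked at the 99.8th, 99.5th, and 99.6th percentile of 20326 symbols with a read and a length. *Rbbp4* itself was at 9932 to 10117 normalized counts in control, at 5485 to 5776 in Ins/Ins, and at 10129 to 10603 in Ins/Del ESCs. Gene counts do not show an in-frame insertion or deletion, so these levels do not check the genotypes. A normalized count here is a read count scaled by edgeR's TMM factors to the mean library size.

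The streak genes did not all move in the same direction in the mutants. *T* and *Fgf8* fell in both mutant lines, *Eomes* rose in both, and *Sox17* was higher in Ins/Del only by a narrow margin. *Mixl1* and *Evx1* passed no test, and *Gsc*, *Foxa2*, and *Cer1* had too few reads to be tested. Of the 6 tested genes, 1 was called higher and 2 lower in Ins/Ins against control (adjusted p of at most 0.01 in edgeR's quasi-likelihood test), where 58.4% of all 14125 tested genes were called. Of all tested genes 29.0% were called higher and 29.4% lower. In Ins/Del against control, 2 were called higher and 2 lower, where 62.5% of all tested genes were called, 30.6% of all tested genes higher and 31.9% lower. A majority of all genes was thus called in each mutant, and the share of streak genes called, 3 of 6 and 4 of 6, lay near it. In both mutants alike, 1 was called higher and 2 lower, beside 25.6% and 26.7% of all tested genes. The 2 lower ones were so by more than 2-fold, beside 8.1% of all tested genes, and 6.58% were higher by as much. *T* and *Fgf8* had enough reads to be tested only through the control libraries and *Sox17* only through the mutant libraries, so these 3 had to differ to enter the test, and the counts are given as a description.

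**Figure D1:**
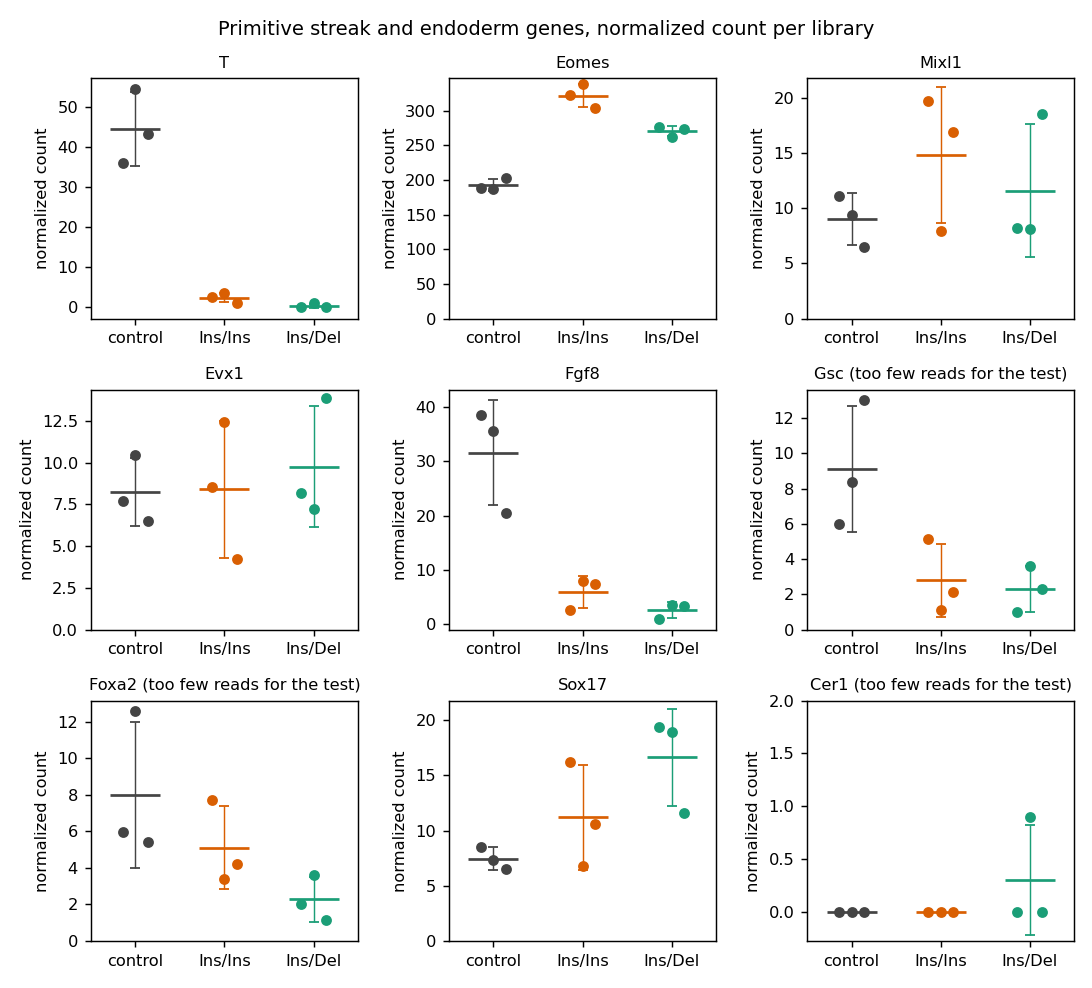
Normalized count (linear axis, starting at or just below 0) of each of the 9 genes in each library; points are the 3 libraries of a line, horizontal lines their mean and bars their SD. *T* lay between 35.9 and 54.5 in control and at or below 3.39 in every mutant library, whereas *Eomes* was higher in every mutant library than in every control library.

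*T* encodes brachyury, the T-box transcription factor needed for mesoderm to form in the posterior streak. Control libraries held 42, 52, and 40 reads of *T*, Ins/Ins libraries 3, 3, and 1, and Ins/Del libraries 0, 1, and 0. In normalized counts the control level was 44.6 ± 9.35 (SD, n = 3), the Ins/Ins level 2.34 ± 1.18, and the Ins/Del level 0.301 ± 0.521. Every mutant library was below every control library. Without regard to the test, 3 of the 9 members lay below control in every Ins/Ins library and 4 in every Ins/Del library, and 1 and 2 lay above it. Among the 6 tested members, 2 lay below in each mutant, and 1 and 2 above. Of all tested genes, 34.2% and 36.9% lay below in this way and 34.9% and 35.9% above. In bulk RNA, fewer cells with a transcript and less of it per cell cannot be told apart.

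The fitted log2 fold change of *T* was -4.17 ± 0.41 (SE; edgeR adjusted p = 1.69e-11) in Ins/Ins and -6.58 ± 0.57 (edgeR adjusted p = 5.53e-13) in Ins/Del. As a share of the control level, the 7 reads of Ins/Ins came to 5.31% (95% exact conditional binomial interval 2.09% to 11.2%), and the single read of Ins/Del came to 0.771% (0.0194% to 4.37%). These intervals cover counting error only. The Ins/Del fold change rests on that 1 read, in library 2, and was -8.45 without that library. Among all 14125 tested genes, *T* had the 43rd lowest log2 fold change in Ins/Ins and the 2nd lowest in Ins/Del. It entered the test only through the control libraries, so these ranks are given as a description.

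The windows of 250 bases before the starts of *T* and *Eomes* are shown because these 2 T-box genes moved in opposite directions. They were taken from RefSeq on GRCm38.p6, both on the plus strand, at chr17:8434173-8434422 for *T* and chr9:118477939-118478188 for *Eomes*, and capitals mark a match to one of 4 motifs searched on both strands.
T: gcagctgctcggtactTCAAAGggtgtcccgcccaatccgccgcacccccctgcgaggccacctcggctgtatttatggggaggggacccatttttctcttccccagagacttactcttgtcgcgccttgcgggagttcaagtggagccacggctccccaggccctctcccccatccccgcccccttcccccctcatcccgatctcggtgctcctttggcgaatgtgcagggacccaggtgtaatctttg
Eomes: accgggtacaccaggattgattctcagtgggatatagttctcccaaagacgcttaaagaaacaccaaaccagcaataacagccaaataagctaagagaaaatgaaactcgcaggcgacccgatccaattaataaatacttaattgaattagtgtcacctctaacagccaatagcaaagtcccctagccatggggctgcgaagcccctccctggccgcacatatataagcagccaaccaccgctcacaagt
The motifs were the TCF/LEF core CTTTGA, bound by the factors at the end of the Wnt pathway, the SMAD element CAGAC and the FOXH1 core AATCCAC, both read by the Nodal pathway, and the T-box core GGTGTG. The *T* window held 1 TCF/LEF core on the minus strand, 234 to 229 bases before the start, which 13.8% of the 32851 RefSeq windows of that length also held. The *Eomes* window held none of the 4. RefSeq windows were at hand for 6 of the 9 genes. *Cer1* held 1 SMAD element (in 42.2% of all windows), *Evx1* held 1 SMAD element and 1 T-box core (in 16.3%), and *Gsc* and the 3 *Foxa2* starts held none. The FOXH1 core stood in 2.10% of all windows and in none of these. *Mixl1*, *Sox17*, and *Fgf8* were not analysed here.

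*Fgf8* encodes a secreted fibroblast growth factor that streak cells need in order to migrate away. It was counted 45, 34, and 19 times in control, 3, 7, and 7 times in Ins/Ins, and 1, 4, and 3 times in Ins/Del libraries. The lowest control library was thus above the highest mutant library, although the control libraries themselves ranged from 20.6 to 38.5 normalized counts. The means were 31.6 ± 9.62 (SD, n = 3) in control, 5.96 ± 2.95 in Ins/Ins, and 2.7 ± 1.46 in Ins/Del. The log2 fold change was -2.47 (SE 0.38; edgeR adjusted p = 5.01e-07) in Ins/Ins and -3.50 (SE 0.45; edgeR adjusted p = 9.10e-09) in Ins/Del. The read ratios put it at 17.6% of control (9.86% to 29.7%) and at 8.43% (3.54% to 17.3%).

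*Eomes*, a T-box factor that acts in the anterior streak and specifies definitive endoderm, moved the other way. It was counted 220, 179, and 187 times in control, 377, 300, and 288 times in Ins/Ins, and 270, 291, and 237 times in Ins/Del libraries. Its normalized counts were 193 ± 8.47 (SD, n = 3), 322 ± 17.0, and 271 ± 7.30. The lines did not overlap, and the order was Ins/Ins, Ins/Del, control. *Eomes* rose by 0.74 on the log2 scale (SE 0.084; edgeR adjusted p = 6.30e-10) in Ins/Ins and by 0.49 (SE 0.087; edgeR adjusted p = 4.55e-06) in Ins/Del, that is 1.67-fold and 1.41-fold.

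*Eomes* also made up most of the reads of the 9 genes. In control libraries 57.6% to 66.5% of their reads were of *Eomes*, in Ins/Ins 83.8% to 88.8%, and in Ins/Del 84.3% to 87.4%. The reads of all 9 genes together came to 16.5 to 18.1 RPM in control, 19.1 to 21.1 in Ins/Ins, and 16.9 to 17.7 in Ins/Del. The sum thus did not fall with *T* and *Fgf8*. On the opposite strand, *Gm33460* overlaps 2.84% of the exon length of *Eomes*, and the strand setting of the counting is not given in the sources used here.

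*Mixl1* encodes a paired-type homeodomain factor of the streak, and *Evx1* a homeodomain factor of its posterior part. *Mixl1* was counted 13, 9, and 6 times in control, 23, 7, and 16 times in Ins/Ins, and 8, 9, and 16 times in Ins/Del libraries, and the lines overlapped. Its log2 fold change was 0.73 ± 0.40 (SE; edgeR adjusted p = 0.110; 95% interval -0.066 to 1.52) in Ins/Ins and 0.29 ± 0.43 (edgeR adjusted p = 0.563; -0.56 to 1.14) in Ins/Del. *Evx1* was counted 9, 10, and 6 times in control, 10, 11, and 4 times in Ins/Ins, and 8, 8, and 12 times in Ins/Del libraries. Its lines overlapped too, with log2 fold changes of 0.022 ± 0.46 (edgeR adjusted p = 0.969; -0.88 to 0.92) and 0.21 ± 0.45 (edgeR adjusted p = 0.685; -0.66 to 1.09). The intervals of both genes include 0 and also a rise of the size measured for *Eomes*.

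**Figure D2:**
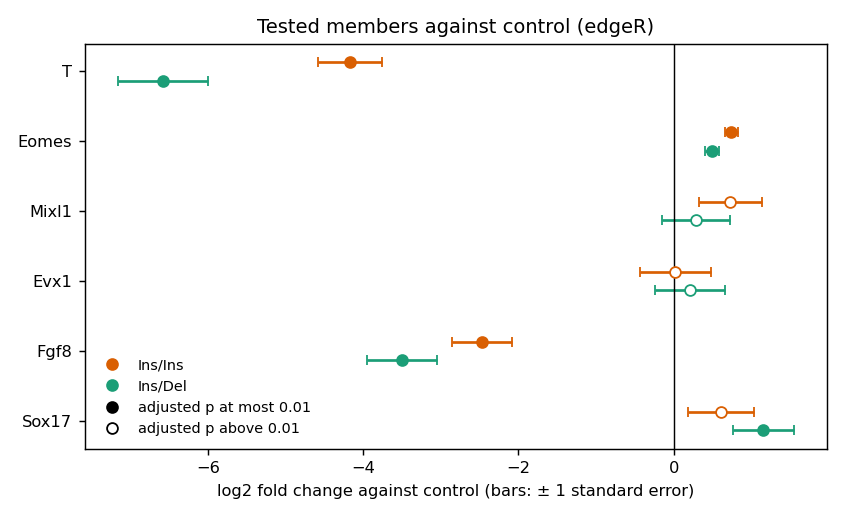
Log2 fold change against control of the 6 tested genes in Ins/Ins (orange) and Ins/Del (green) ESCs; bars are 1 standard error, and filled points have an adjusted p of at most 0.01. *T* and *Fgf8* lie far to the left in both mutants, *Eomes* lies at 0.74 and 0.49, and the points of *Mixl1* and *Evx1* are open in both mutants.

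The organizer and endoderm genes were closer to the limit of counting. *Gsc* encodes goosecoid, a homeodomain repressor of the organizer and anterior streak. It was counted 7, 8, and 12 times in control, 6, 1, and 2 times in Ins/Ins, and 1, 4, and 2 times in Ins/Del libraries. After normalization every mutant library (at most 5.13) was below every control library (at least 5.98). The read ratio was 33.9% of control (14% to 74.2%) in Ins/Ins and 26.8% (9.85% to 63.0%) in Ins/Del. The exact permutation test, 2-sided, gave p = 0.1 in each case, the smallest that 3 against 3 can give. When all genes with at least 1 read were fitted, *Gsc* was not called (edgeR adjusted p = 0.0352 and 0.0130).

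*Foxa2*, a forkhead factor of the node and endoderm, was counted 7, 12, and 5 times in control, 9, 3, and 4 times in Ins/Ins, and 2, 4, and 1 times in Ins/Del libraries. Control and Ins/Ins overlapped, and the read ratio of 67.7% had an interval of 33.6% to 133%. In Ins/Del, *Foxa2* was at 30.1% of control (11% to 72.1%), with every library below every control library and an exact permutation p of 0.1. The fit of all genes with at least 1 read did not call *Foxa2* in Ins/Ins (edgeR adjusted p = 0.470) or Ins/Del (edgeR adjusted p = 0.0273). *Cer1*, a secreted antagonist of Nodal, BMP, and Wnt made by anterior endoderm, had 1 read in all, in Ins/Del library 2, and 0 in the other 8 libraries. No change in it was detectable at this depth.

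*Sox17* encodes an HMG-box factor of definitive endoderm and also of primitive endoderm. It was counted 10, 7, and 6 times in control, 19, 6, and 10 times in Ins/Ins, and 19, 21, and 10 times in Ins/Del libraries. Its normalized counts were 7.46 ± 1.03 (SD, n = 3) in control, 11.2 ± 4.77 in Ins/Ins, and 16.6 ± 4.40 in Ins/Del, and only Ins/Del stood apart from control. The log2 fold change was 0.61 ± 0.42 (SE; edgeR adjusted p = 0.200) in Ins/Ins and 1.15 ± 0.39 (edgeR adjusted p = 0.00929) in Ins/Del. The Ins/Del call was lost in 9 of 15 alternative fits, among them DESeq2 (adjusted p = 0.0524), the fit of all genes with at least 1 read, which has no filter on low counts (edgeR adjusted p = 0.0106), and total-count scaling (edgeR adjusted p = 0.0104). Each of these left 1 gene called higher and 2 lower. It was also lost without any 1 of the 3 control libraries, Ins/Ins library 3, or Ins/Del library 1 or 2 (edgeR adjusted p = 0.0110 to 0.0443). *Gm37587* overlaps 16.8% of the exon length of *Sox17* on the other strand.

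*T* and *Fgf8* were at a smaller percentage of control in Ins/Del than in Ins/Ins, but the direct comparison of the mutants called no streak gene. Of all tested genes, 10.8% were called there, 6.17% higher and 4.64% lower in Ins/Del. The Ins/Del libraries lay below every Ins/Ins library for *T* and *Eomes* and above them for no member, beside 16.7% and 17.4% of all tested genes. At an unadjusted p under 0.05, *T* and *Eomes* passed in edgeR, and the same 2 in DESeq2. DESeq2 gave an adjusted p only for *Eomes* (0.119) and none for the other 5. *Eomes* was lower in Ins/Del than in Ins/Ins by 0.25 on the log2 scale (95% interval -0.41 to -0.093; edgeR adjusted p = 0.0240). The difference of *Fgf8* was -1.03 (-2.32 to 0.26; edgeR adjusted p = 0.296), and that of *Sox17* was 0.54 (-0.17 to 1.24; edgeR adjusted p = 0.324). The *Mixl1* difference was -0.44 (-1.20 to 0.33), and the *Evx1* difference 0.19 (-0.69 to 1.06). *T* had at most 3 reads in every mutant library, so no fold between the mutants is given. The 7 reads of Ins/Ins and the 1 of Ins/Del gave a ratio with an interval of 0.322% to 113%, which includes equal levels.

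Levels were compared between genes per kb of exon. In control ESCs the order was *Eomes* (46.4 normalized counts per kb), *Fgf8* (23.4), *T* (19.2), *Gsc* (7.19), *Mixl1* (3.93), *Foxa2* (3.37), *Evx1* (2.86), *Sox17* (1.56), and *Cer1* (0). The ranges of *Fgf8* and *T* overlapped, as did those of *Gsc* and *Mixl1*, of *Mixl1* and *Foxa2*, and of *Foxa2* and *Evx1*. *Eomes* stayed on top in Ins/Ins (77.5) and in Ins/Del (65.2), and *Mixl1* came next (6.46 and 5.06). *T* went from the 3rd place to the 8th (1.01) and the 9th (0.130). Below *Eomes*, neighbours in the order overlapped in both mutants, apart from *T* and *Cer1* in Ins/Ins. For scale, the median over 20326 symbols with a read was 26.0 per kb and over the tested genes 90.9. Averaged over the 9 libraries, *Eomes* stood at the 60.5th percentile of those symbols, *Fgf8* at the 41.4th, *T* at the 38.4th, and *Cer1* at the 2.58th.

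**Figure D3:**
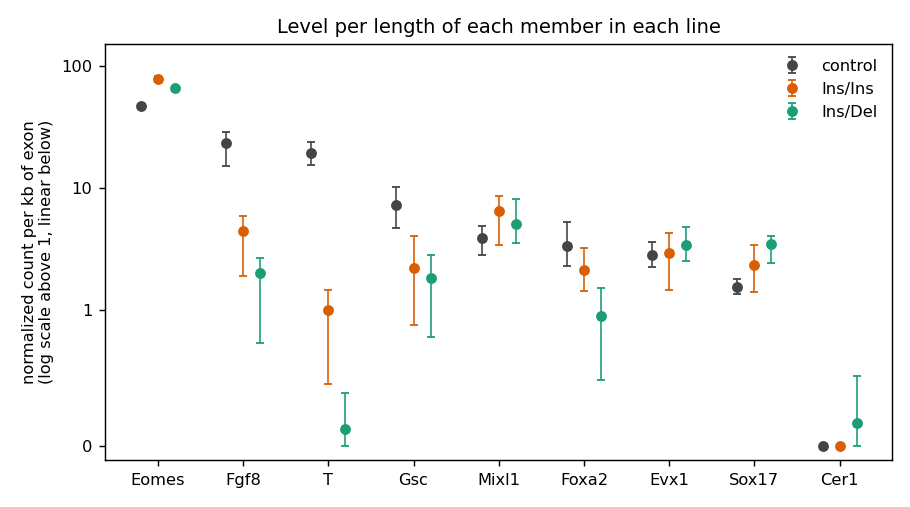
Normalized count per kb of exon of each gene in control (grey), Ins/Ins (orange), and Ins/Del (green) ESCs, in the order of the control level; points are means of 3 libraries, bars run from the lowest to the highest library, and the axis is logarithmic above 1 and linear below. *Eomes* is on top in every line, and *T* drops from 19.2 to 1.01 and 0.130.

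The genes whose pattern was most like that of a member were sought over the 9 libraries by Pearson's r of log2 normalized counts. With 3 lines that differ at a majority of genes, a high r mainly says that the order of the lines is shared, and it is given as a description. *T* was followed most closely by *Gpr153* (r = 0.992) and *Slitrk4* (r = 0.992), and 1987 of 14124 other tested genes had an r over 0.9 with it. *Slitrk4* was at 56.6 normalized counts in control, 6.87 in Ins/Ins, and 2.96 in Ins/Del. *Eomes* was most like *Sall1* (r = 0.990) and *Tex9* (r = 0.990), with 938 genes over 0.9, and *Fgf8* was most like *Gpm6a* (r = 0.982) and *Cyp20a1* (r = 0.981), with 904. *Sox17*, *Evx1*, and *Mixl1* had fewer such genes. There were 10 genes over 0.9 for *Sox17*, led by *Chac1* (r = 0.941) and *Fbln5* (r = 0.935). There were 2 for *Evx1*, namely *5430405H02Rik* (r = 0.915) and *Rwdd3* (r = 0.909), and 1 for *Mixl1*, *9430041J12Rik* (r = 0.912), followed by *Nsl1* (r = 0.887).

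Other genes of the streak and nascent mesoderm fell more often than they rose. Of 23 listed genes, 16 were tested, and 9 of those were called lower by more than 2-fold in both mutants (8.1% of all tested genes were). In each mutant 2 were called higher and 9 lower, and the median log2 fold change was -1.34 in Ins/Ins and -1.40 in Ins/Del, beside 0.0038 and -0.011 over all tested genes. *Sp5*, a zinc-finger target of Wnt signalling, was at 60.6 to 77.5 normalized counts in control, 1.71 to 3.17 in Ins/Ins, and 1.80 to 2.31 in Ins/Del ESCs. Its log2 fold change was -4.80 (SE 0.35; edgeR adjusted p = 3.21e-15) in Ins/Ins and -4.99 (SE 0.36; edgeR adjusted p = 2.13e-15) in Ins/Del. As reads, 209 in control became 7 and 6. *Wnt5a*, a non-canonical Wnt ligand, fell (log2 fold change -3.58 and -3.63, edgeR adjusted p = 1.57e-14 and 1.20e-14). Some listed genes, such as *Sp5* and *Wnt5a*, had enough reads to be tested only through the control libraries. These had to differ to enter the test, so the counts over the lists are given as a description.

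*Fgf17*, a close relative of *Fgf8*, fell (log2 fold change -3.80 and -3.48, edgeR adjusted p = 1.09e-24 and 4.18e-24), from 400 ± 43.3 (SD, n = 3) to 28 ± 6.40 and 36.4 ± 6.06 normalized counts. It lies on chromosome 14 among genes that were also lower: of 59 tested genes within 5 Mb, 54 were called lower in Ins/Ins (median log2 fold change -1.13) and 52 in Ins/Del (-1.14). The part of this stretch in the change of *Fgf17* was not tested. Within 5 Mb of *T*, 10 and 7 of 42 tested genes were called lower, and within 5 Mb of *Fgf8*, 17 and 20 of 94. Of all tested genes, 29.4% were called lower in Ins/Ins and 31.9% in Ins/Del. *Ifitm1*, a membrane protein of the streak and the most abundant gene of the list, fell (log2 fold change -1.16 and -1.80, edgeR adjusted p = 1.11e-26 and 3.26e-32), from 3851 ± 44.6 to 1718 ± 71.9 and 1105 ± 52.2 normalized counts.

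Genes of the node and the definitive endoderm were divided. Of 18 listed genes, 11 were tested. In Ins/Ins 4 were called higher and 5 lower, and in Ins/Del 3 were called higher and 5 lower, with median log2 fold changes of -0.32 and 0.059. *Trh*, thyrotropin-releasing hormone, fell (log2 fold change -2.59 and -2.93, edgeR adjusted p = 2.90e-37 and 1.54e-38), from 7703 ± 232 (SD, n = 3) to 1288 ± 83.1 and 1014 ± 29.9 normalized counts. *Otx2*, the anterior homeodomain factor, fell (log2 fold change -1.68 and -2.19, edgeR adjusted p = 8.07e-26 and 8.10e-29). *Otx2* also lies on chromosome 14, and 42 and 38 of 52 tested genes within 5 Mb were called lower there (median -0.87 in both). *Fst*, which encodes the activin antagonist follistatin, fell (log2 fold change -1.40 and -1.01, edgeR adjusted p = 4.40e-08 and 5.99e-06). The called genes that rose are named after their values were seen. *Prdm1*, a zinc-finger repressor, rose in both mutants (log2 fold change 0.54 and 0.41, edgeR adjusted p = 6.42e-10 and 3.05e-07), as did *Foxj1*, a factor of ciliated node cells (0.52 and 0.74, edgeR adjusted p = 0.00413 and 5.73e-05). The endoderm factors *Hhex* (0.40, edgeR adjusted p = 0.00227) and *Foxa3* (0.69, edgeR adjusted p = 0.00809) were called in Ins/Ins and not in Ins/Del (0.24 and 0.41), and the chemokine receptor *Cxcr4* was called in Ins/Del (0.86, edgeR adjusted p = 0.00613) and not in Ins/Ins (0.80, edgeR adjusted p = 0.0114). The Ins/Ins calls of *Hhex*, *Foxa3*, and *Foxj1* and the Ins/Del call of *Cxcr4* were each lost in 3 to 5 alternative fits.

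**Figure D4:**
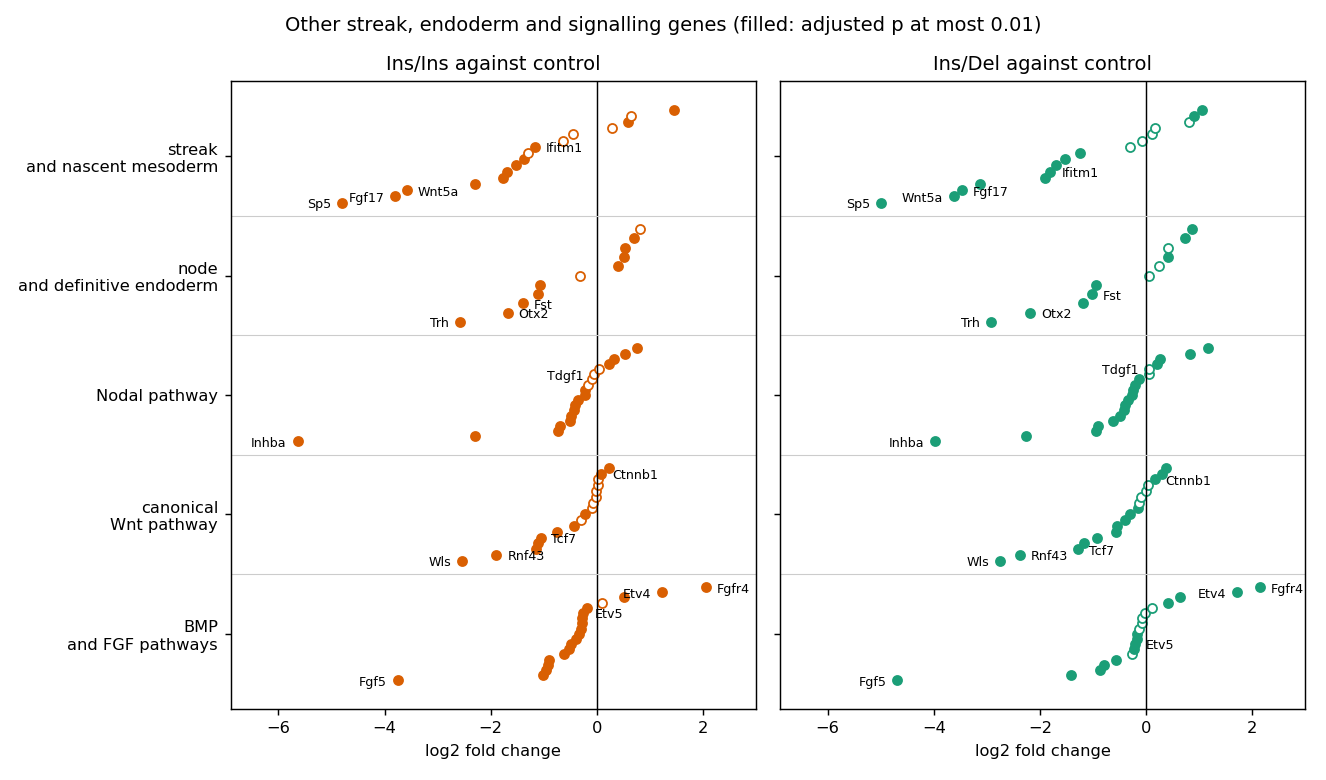
Log2 fold change against control of the tested genes of 5 lists in Ins/Ins (left) and Ins/Del (right) ESCs, each list in a band and sorted by its change; filled points have an adjusted p of at most 0.01, and labels mark the genes described in the text. In both mutants *Sp5*, *Wnt5a*, *Fgf17*, *Inhba*, and *Fgf5* lie far to the left, and *Fgfr4* and *Etv4* are higher by more than 1.

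The Nodal pathway induces *Eomes* and *Gsc* in the embryo. Of its 21 listed genes, 19 were tested, with 4 called higher and 11 lower in Ins/Ins and 4 higher and 13 lower in Ins/Del, most of them by less than 2-fold (median log2 fold change -0.23 and -0.26). *Inhba*, which encodes the activin A subunit, was counted 44, 41, and 35 times in control, 0, 1, and 1 times in Ins/Ins, and 2, 4, and 1 times in Ins/Del libraries. The 2 reads of Ins/Ins came to 1.69% of control (0.203% to 6.25%) and the 7 of Ins/Del to 6.03% (2.37% to 12.8%), and both were called (edgeR adjusted p = 2.68e-12 and 4.71e-11). *Tdgf1*, which encodes the Nodal co-receptor Cripto and is the most abundant gene of the list, was at 18385 ± 127 (SD, n = 3), 17799 ± 166, and 19152 ± 394 normalized counts and was called in neither mutant by edgeR (adjusted p = 0.102 and 0.0375). The genes *Nodal* (log2 fold change 0.53 and 0.83) and *Wnt3* (-2.30 and -3.13), the ligands that start the streak, were called in both mutants and were named after their values were seen. *Inhba* and *Wnt3* had enough reads to be tested only through the control libraries, so both had to differ to enter the test.

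All 17 genes of the canonical Wnt pathway list were tested, and 2 were called higher and 8 lower in Ins/Ins, 3 higher and 10 lower in Ins/Del, with medians of -0.23 and -0.31 on the log2 scale. *Wls*, which carries Wnt ligands to the cell surface, fell (log2 fold change -2.54 and -2.76, edgeR adjusted p = 4.15e-26 and 6.23e-27), from 705 ± 21.6 (SD, n = 3) to 121 ± 14.8 and 104 ± 7.14 normalized counts. *Rnf43*, a ubiquitin ligase that removes Wnt receptors, fell (log2 fold change -1.89 and -2.38, edgeR adjusted p = 0.000336 and 4.52e-05), and *Tcf7*, a TCF/LEF factor, fell (log2 fold change -1.06 and -1.28, edgeR adjusted p = 5.96e-22 and 2.53e-24). Only the control libraries gave *Rnf43* enough reads to be tested, so it had to differ to enter the test. *Ctnnb1*, which encodes β-catenin, was slightly higher, by 0.079 and 0.16 (edgeR adjusted p = 0.00858 and 1.27e-06), and its Ins/Ins call was lost in 9 of 15 alternative fits. *Ulk4* overlaps 14.6% of the exon length of *Ctnnb1* on the other strand.

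Of 20 genes of the BMP and FGF pathways, 19 were tested, with 3 called higher and 15 lower in Ins/Ins and 4 higher and 9 lower in Ins/Del, with medians of -0.34 and -0.17 on the log2 scale. *Fgf5*, a ligand of the primed epiblast, fell (log2 fold change -3.75 and -4.69, edgeR adjusted p = 6.96e-22 and 3.50e-23), from 213 ± 4.10 (SD, n = 3) to 15.6 ± 0.743 and 8.14 ± 1.74 normalized counts. *Fgfr4*, an FGF receptor, rose by 2.05 and 2.14 (edgeR adjusted p = 5.84e-11 and 1.30e-11), and *Etv4*, an ETS factor downstream of FGF signalling, rose by 1.23 and 1.72 (edgeR adjusted p = 3.69e-23 and 1.27e-28). *Etv5*, its relative and the most abundant gene of the list, fell (log2 fold change -0.25 and -0.21, edgeR adjusted p = 4.61e-10 and 4.14e-08). Over the 5 lists, 63 of 82 tested genes (76.8%) were called in Ins/Ins and 62 (75.6%) in Ins/Del, beside 58.4% and 62.5% of all tested genes. Among the single lists the share called was 68.8% in both mutants for streak and nascent mesoderm, 81.8% and 72.7% for node and definitive endoderm, 78.9% and 89.5% for the Nodal pathway, 58.8% and 76.5% for the Wnt pathway, and 94.7% and 68.4% for the BMP and FGF pathways.

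Markers of the cell types that such cultures can hold also differed between the lines. Of 13 pluripotency markers, all tested, 9 were called higher and 3 lower in Ins/Ins and 8 higher and 2 lower in Ins/Del, and their summed level was 88045 to 93267 normalized counts in control, 119101 to 119937 in Ins/Ins, and 115310 to 119230 in Ins/Del. The median log2 fold change was 0.47 and 0.43. *Dppa5a*, the most abundant, rose by 0.47 and 0.28 on the log2 scale (edgeR adjusted p = 3.58e-18 and 1.13e-11). *Pou5f1* was lower by 0.12 in Ins/Ins (edgeR adjusted p = 0.000203) and was not called in Ins/Del (log2 fold change -0.032, edgeR adjusted p = 0.303).

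Extraembryonic endoderm shares *Sox17* with definitive endoderm, and its list was mixed: of 14 tested among 17 markers, 3 were called higher and 6 lower in Ins/Ins, and 7 higher and 5 lower in Ins/Del. Its summed level was 11058 to 11689 in control, 6825 to 6928 in Ins/Ins, and 8717 to 8894 in Ins/Del, and the median log2 fold change was -0.18 and 0.42. The basement membrane genes *Lamb1* (log2 fold change -1.01 and -0.99, edgeR adjusted p = 2.29e-26 and 3.66e-26) and *Sparc* (-1.23 and -0.69, edgeR adjusted p = 4.18e-26 and 1.30e-18) were its most abundant. Among the other markers called lower in both mutants were *Gata4* (log2 fold change -1.56 and -1.05) and *Dab2* (-1.35 and -1.29). These and the 7 markers called higher in Ins/Del, the line in which *Sox17* was called higher, are named after their values were seen. *Gata4* lies on chromosome 14 between *Otx2* and *Fgf17*, as does *Sox7*, which rose. Most tested genes near *Otx2* and *Fgf17* were called lower, and the part of this in the change of *Gata4* was not tested. *Hnf4a*, a nuclear receptor, rose in both mutants (log2 fold change 3.68 and 3.96, edgeR adjusted p = 1.22e-13 and 3.81e-15), as did *Sox7*, a relative of *Sox17* (1.63 and 2.22, edgeR adjusted p = 2.39e-08 and 1.60e-12), and *Cubn* (0.49 and 0.81, edgeR adjusted p = 0.00826 and 2.21e-05), whose Ins/Ins call was lost in 9 of 15 alternative fits. Control libraries held 6, 4, and 3 reads of *Hnf4a*. It had enough reads to be tested only through the mutant libraries, so it had to differ to enter the test. Called higher in Ins/Del but not in Ins/Ins were *Gata6* (1.14), *Pdgfra* (0.89), and *Lama1* (0.53), and *Col4a1* was higher by 0.31 in Ins/Del and lower (-0.31) in Ins/Ins. *Ttr* and *Apoa1*, which mark mature visceral endoderm, had at most 3 reads in every library, as had *Neurog2* and *Olig2* of the neural list and *Lum* of the fibroblast list described next.

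Trophoblast can express *Eomes*. Of 10 tested among 11 trophoblast markers, 3 were called higher and 5 lower in Ins/Ins and 2 higher and 6 lower in Ins/Del, and the sum went from 5107 to 5657 in control to 2925 to 3099 in Ins/Ins and 2094 to 2171 in Ins/Del. The median log2 fold change was -0.68 and -0.76. *Tfap2c*, a trophoblast and germ cell factor, was higher by 0.48 in Ins/Ins and lower by 0.21 in Ins/Del (edgeR adjusted p = 1.09e-12 and 8.55e-05), and *Krt18*, an epithelial keratin, fell (log2 fold change -2.45 and -2.98, edgeR adjusted p = 2.63e-30 and 2.96e-32). Of 5 tested among 11 neural markers, 1 was called higher and 2 lower in each mutant, with a sum of 3043 to 3098, 1348 to 1486, and 1672 to 1747 and a median log2 fold change of -0.091 and 0.27. *Tubb3*, a neuronal tubulin, rose by 1.04 and 1.46 (edgeR adjusted p = 1.24e-18 and 4.50e-24), and *Nes*, which encodes nestin, fell (log2 fold change -2.93 and -3.08, edgeR adjusted p = 5.72e-32 and 1.22e-32). Of 5 tested among 8 fibroblast markers, 1 was called higher and 4 lower in each mutant, with a sum of 623 to 732, 279 to 301, and 355 to 388 and a median log2 fold change of -4.04 and -3.55. *Col1a1*, the main collagen, fell (log2 fold change -4.04 and -3.55, edgeR adjusted p = 8.51e-24 and 5.42e-23), and *Thy1*, a surface protein, rose by 2.43 and 2.77 (edgeR adjusted p = 2.29e-20 and 7.52e-23). The share of tested markers called in Ins/Ins and Ins/Del was 92.3% and 76.9% for pluripotency, 64.3% and 85.7% for extraembryonic endoderm, 80.0% in both for trophoblast, 60.0% in both for neural progenitors, and 5 of 5 in both for fibroblasts, beside the same 58.4% and 62.5% of all tested genes. Some markers, such as *Cdx2* and *Col3a1*, had enough reads to be tested only through the control libraries. These had to differ to enter the test, so the marker counts and shares are given as a description. The part of the listed cell types in the changes of *T*, *Fgf8*, *Eomes*, and *Sox17* was not tested.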

How the data were processed

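RNA-seq was performed by the authors on 3 libraries of each line as paired-end reads of 50 bp. Per the study's methods, reads were aligned to mm10 with STAR (2.7.3), counted with HTSeq, and tested with DESeq2 (1.22.2). The deposited values were raw, whole-number counts per gene symbol. The annotation, HTSeq version, and strand setting are not given in the sources used here. Here, edgeR (4.0.16) was run in R (4.3.3) on all 9 libraries with TMM factors, filterByExpr (minimum count 10), and glmQLFTest, and p-values were adjusted over 14125 tested genes by Benjamini-Hochberg and called at 0.01. The SE of a fold change was taken from the F statistic. The genes and the lists were chosen with earlier results of these data known. All 9 members were named. From each pathway list, up to 3 genes called and over 2-fold changed in both mutants and the most abundant tested gene were named, from each marker list the 2 most abundant, for each tested member the 2 genes with the highest r, and *Rbbp4*. A few more genes, marked as such, were named after their values were seen. A gene that the rule names is not reported here. Exon lengths came from GENCODE on GRCm38 (24321 symbols matched), promoters from RefSeq. Alternatives were DESeq2 (1.42.0), other scalings, no filter, 2 groups only, a replicate block, leaving out each library, and a limit of 0.05. The test was checked on simulated data. Changes were simulated only in genes with higher mean counts than *T*, *Fgf8*, *Mixl1*, *Evx1*, and *Sox17* have, so the check does not cover such low counts. Between libraries of a line, chi-square per gene was 1.87 to 4.62, so none was a duplicate.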

Additional observations from a re-analysis of the deposited data

Results flagged for a closer look

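None of the 9 streak and endoderm genes differed between the mutants at an adjusted p of 0.01. Among the other genes the text names, 20 did (edgeR's direct test of Ins/Del against Ins/Ins, adjusted over all tested genes). On the log2 scale, and lower in Ins/Del than in Ins/Ins, were *Ifitm1* (-0.64), *Trh* (-0.34), *Otx2* (-0.51), *Tcf7* (-0.22), *Dppa5a* (-0.19), *Tfap2c* (-0.70), *Krt18* (-0.53), and *Sox2* (-0.10). Higher were *Tdgf1* (0.11), *Etv4* (0.49), *Sparc* (0.54), *Tubb3* (0.42), *Thy1* (0.34), *Nodal* (0.31), *Sox7* (0.59), *Pdgfra* (0.93), *Lama1* (0.44), *Col4a1* (0.62), *Chac1* (0.70), and *Rbbp4* (0.89), the mutated gene. *Tfap2c* was called in opposite directions in the mutants, at 1260 ± 32.6 normalized counts in control (SD, n = 3), 1763 ± 41.1 in Ins/Ins, and 1086 ± 64.1 in Ins/Del. The calls of *Tdgf1*, *Tcf7*, *Thy1*, *Sox2*, *Sox7*, *Pdgfra*, and *Chac1* were each lost in 3 to 6 of the 15 alternative fits.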

How the results depend on the processing

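The counts of streak genes and of list genes called against control stayed within 1.5 times of their value under every alternative. Between the mutants, 1 member (*Eomes*, lower in Ins/Del) was called at a limit of 0.05 in place of 0.01, where the main count was 0. The calls of *T*, *Fgf8*, and *Eomes* against control held in all 15 alternative fits. Fold changes of uncalled genes changed sign when single libraries were left out: *Evx1* ranged from -0.31 to 0.32 in Ins/Ins, from -0.093 to 0.42 in Ins/Del, and from -0.12 to 0.52 between the mutants, and *Mixl1* from -0.17 to 0.51 in Ins/Del. *Pdgfra* ranged from -0.25 to 0.093 and *Fbln5* from -0.047 to 0.29 in Ins/Ins, and *9430041J12Rik* from -0.029 to 1.13 and *5430405H02Rik* from -0.45 to 0.49 in Ins/Del. The cause was not tested. The deviations of libraries from the mean of their line were compared between lines. Their r was -0.020 to 0.063 for the same replicate number and -0.057 to 0.054 for different numbers. These ranges overlap, and such a check cannot show whether the numbers pair the libraries. With a replicate block, 3 members were called in Ins/Ins, 4 in Ins/Del, and 0 between the mutants, and 62 list genes in each mutant. *Cer1*, *Gsc*, and *Foxa2* were limited by depth.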
